A study of Mus musculus with 9 samples.

Results

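The 10 genes described here encode subunits or close partners of the Polycomb complexes: *Ezh1*, *Ezh2*, *Eed*, *Suz12*, *Jarid2*, *Mtf2*, *Cbx2*, *Cbx7*, *Scmh1* and *Scml2*. They were taken as a list of symbols and each was matched to 1 of 55471 gene IDs in a table of read counts. The list was chosen by their expression values in the comparisons below, which were already known when it was drawn up. The values of these 10 genes are therefore given as a description, without p-values. Calls of these genes from the fit of all genes are counted below beside the shares of all genes, and nothing is read from them.

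RNA was sequenced from mouse embryoid bodies (EBs), the aggregates in which embryonic stem (ES) cells start to differentiate, in 9 libraries, 3 per group. All EBs were made from E14 ES cells in hanging drops and were harvested after 3 days of differentiation in vitro. WT EBs came from the parental line. KO EBs carried the genotype Tnfaip2-/- and came from 1 CRISPR clone with a frameshift and an early stop codon in exon 2. KO_PAPC EBs came from the same clone and received palmitic acid (PA), a saturated fatty acid, and palmitoyl-L-carnitine (PC), its form for transport into mitochondria, at 8 μM each. The 2 genotypes were therefore compared as 1 clone against its parental line, and clone and genotype cannot be told apart. WT EBs with PA/PC were not analysed here. As the study's methods read, KO_PAPC EBs were formed in fibroblast medium that already held PA/PC, whereas untreated EBs were formed in ES cell medium, so medium and PA/PC cannot be told apart either.

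Polycomb repressive complex 2 (PRC2) methylates lysine 27 of histone H3 (H3K27) and so helps to keep developmental genes silent in ES cells. Its catalytic subunit is EZH2 or its slower paralogue EZH1, EED and SUZ12 complete the active core, and accessory subunits such as JARID2, MTF2 and PHF19 bring it to CpG-rich DNA. PRC1 ubiquitinates histone H2A, and its canonical form binds methylated H3K27 through a CBX protein such as CBX2 or CBX7. SCMH1 and SCML2 are mammalian homologues of the Drosophila protein Sex comb on midleg, bind PRC1 subunits, and in the case of SCML2 are best known from the male germline.

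Depth was even, at 27362913 to 28914312 counts per library. *Tnfaip2* had only 5 to 25 counts in any library, and the frameshift need not lower its transcript, so it gave no check of the KO labels. ES cell markers (7 genes, *Pou5f1* and *Nanog* among them) summed to 2449 to 2530 CPM (counts scaled to a common library total) in WT, 3463 to 3501 CPM in KO and 2560 to 2663 CPM in KO_PAPC libraries. The similar sums in WT and KO_PAPC hide a split: 3 of the 7 were called higher in KO_PAPC than in WT and 4 lower. *Pou5f1* averaged 657 CPM in WT and 912 CPM in KO_PAPC, and *Zfp42* 242 and 136 CPM. Primitive endoderm markers (5 genes, *Gata6* and *Sox17* among them) summed to 215 to 220 CPM in WT, against 132 to 137 CPM in KO and 22.4 to 23.4 CPM in KO_PAPC libraries. In each of the 3 comparisons all 5 were called lower in the first-named group. Trophoblast markers (6 genes) summed to 73.3 to 75.6 CPM in WT, against 304 to 310 CPM in KO and 39.4 to 42.8 CPM in KO_PAPC, mostly from *Tfap2c*, while the 6 fibroblast markers stayed between 15.1 and 23.2 CPM. No marker was at 0 in every library of a group. In bulk RNA fewer cells of a type and less RNA per cell cannot be told apart, and the part of these cell types in the results below was not tested.

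Levels are CPM scaled by the TMM factors of edgeR, given as mean ± SD over 3 libraries, and log2 fold changes come with their SE from edgeR's quasi-likelihood fit. A gene was called at a Benjamini-Hochberg adjusted p under 0.05 over all genes tested. TMM and library-total scaling differed for the KO_PAPC libraries: with library totals the median log2 fold change of all tested genes was -0.18 in both comparisons with KO_PAPC, against -0.017 with TMM. Log2 fold changes of KO_PAPC shift by about -0.17 on that scale. Where a log2 fold change printed below turns its direction, this is said beside it.

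*Scml2* (ENSMUSG00000000037, chromosome X, 161117193 to 161258213, plus strand, GRCm38) stood apart from the other 9 genes. Its level was 53.7, 50.3 and 50.5 CPM in WT libraries, 52.4, 57.7 and 59.0 CPM in KO libraries, and 2.68, 2.09 and 3.08 CPM in KO_PAPC libraries. These are 53 to 79 reads per KO_PAPC library against 1452 to 1775 in the other 6. WT and KO values overlapped, and every KO_PAPC value lay far below both. The log2 fold change was 0.13 ± 0.041 (SE) for KO versus WT, -4.43 ± 0.081 for KO_PAPC versus KO and -4.30 ± 0.081 for KO_PAPC versus WT, so that *Scml2* was 21.5-fold lower in KO_PAPC than in KO and 19.7-fold lower than in WT. None of its exons overlapped another gene, and none of the 51-base words of its transcripts, the length of the reads, occurred in another gene.

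The 250 bases before the RefSeq start of *Scml2* are shown beside those of *Suz12*, the member with the highest level per length, because both windows are free of annotated exons and differ widely in CpG content. Sequences are from RefSeq (GRCm38.p6), read 5′ to 3′ on the gene's strand, with each CG in capitals. The *Scml2* window is chrX:161162500-161162749 and the *Suz12* window chr11:79992856-79993105.
Scml2: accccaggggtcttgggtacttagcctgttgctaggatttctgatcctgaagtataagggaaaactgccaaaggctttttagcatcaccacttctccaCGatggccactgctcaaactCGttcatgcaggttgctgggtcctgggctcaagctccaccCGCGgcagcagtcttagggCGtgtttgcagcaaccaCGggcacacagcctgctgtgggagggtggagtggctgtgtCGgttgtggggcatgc
Suz12: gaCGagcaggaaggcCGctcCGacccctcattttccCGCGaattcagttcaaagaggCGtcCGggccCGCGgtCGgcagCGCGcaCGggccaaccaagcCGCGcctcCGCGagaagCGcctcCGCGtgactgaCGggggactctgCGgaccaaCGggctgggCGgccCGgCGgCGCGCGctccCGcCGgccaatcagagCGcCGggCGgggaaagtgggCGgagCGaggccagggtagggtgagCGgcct

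The *Scml2* window held 7 CpG and that of *Suz12* 37. A RefSeq window was found for 9 of the 10 genes (not *Cbx2*). The first window of each of the other 8 held between 12 (*Eed*) and 45 (*Scmh1*) CpG, and the second windows of *Mtf2* and *Scmh1* held 2 and 0. Over 32851 RefSeq promoters the median was 6 CpG, and 53.7% of them held fewer CpG than *Scml2*, against 97.8% for *Suz12*. The words CACGTG (E-box) and TTCCCGC (E2F) were searched on both strands. CACGTG was in no window of the 9 genes (6.02% of all promoters held it), and TTCCCGC was in those of *Suz12* and *Scmh1* (3.82% of all promoters). GENCODE annotates 7 *Scml2* transcripts, of which 2 start before this window, the first of them 45.6 kb upstream of the RefSeq start. The counts are per gene and do not tell these starts apart.

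**Figure D1:**
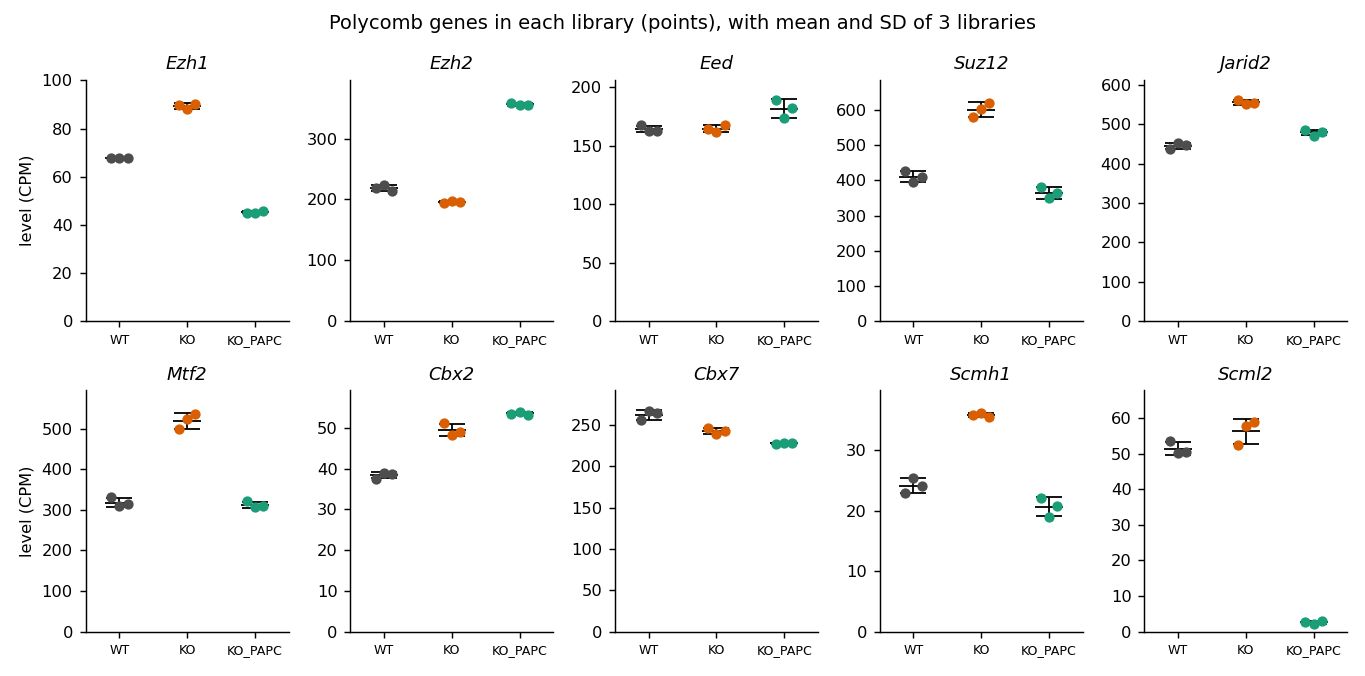
Level of each of the 10 Polycomb genes in CPM (vertical axes from 0, TMM-scaled) in the 3 WT, 3 KO and 3 KO_PAPC libraries; points are libraries, horizontal lines and bars the mean and SD of 3. *Scml2* lies between 50.3 and 59.0 CPM in WT and KO libraries and between 2.09 and 3.08 CPM in KO_PAPC libraries, while no other gene of the 10 comes near 0.

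The genes of the catalytic subunits of PRC2 differed in opposite directions. *Ezh1* (chromosome 11, 101191115 to 101226463) was at 67.9, 67.6 and 67.7 CPM in WT, 89.6, 88.0 and 90.4 CPM in KO and 45.1, 44.8 and 45.7 CPM in KO_PAPC libraries. *Ezh2* (chromosome 6, 47530139 to 47595341) was at 219, 224 and 213 CPM in WT, 193, 197 and 196 CPM in KO and 359, 355 and 355 CPM in KO_PAPC libraries. No 2 groups overlapped for either gene: *Ezh1* was highest in KO and lowest in KO_PAPC, and *Ezh2* the reverse. In KO_PAPC versus KO the log2 fold change was -0.99 ± 0.036 for *Ezh1* (1.98-fold lower) and 0.86 ± 0.026 for *Ezh2* (1.82-fold higher). In KO versus WT the values were 0.40 ± 0.031 and -0.16 ± 0.025.

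Per exon length, *Ezh1* made up 21.8% ± 0.433 of the summed *Ezh1* and *Ezh2* level in WT (SD, n = 3), 29.1% ± 0.385 in KO and 10.2% ± 0.126 in KO_PAPC libraries. EZH2 is typical of dividing cells, whereas EZH1 persists in cells that have stopped dividing. *Ezh2* was the more abundant transcript in all 9 libraries. The shares depend on the exon length used, but the order of the groups does not.

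The core partners differed from each other. *Eed* (chromosome 7, 89954654 to 89980983), whose protein binds methylated H3K27 and stimulates the enzyme, was at 163 to 168 CPM in WT, against 162 to 168 CPM in KO and 173 to 189 CPM in KO_PAPC libraries. WT and KO overlapped, and its log2 fold change in KO_PAPC versus KO, 0.14 ± 0.031, turned to -0.026 with library totals, as did that versus WT (0.14 ± 0.033 and -0.027). *Suz12* (chromosome 11, 79993106 to 80034123), which encodes the scaffold of PRC2, was at 427, 397 and 410 CPM in WT, 581, 604 and 621 CPM in KO and 383, 349 and 365 CPM in KO_PAPC libraries. It was 1.46-fold higher in KO than in WT (log2 fold change 0.55 ± 0.025) and 1.65-fold lower in KO_PAPC than in KO (-0.72 ± 0.029), and its KO_PAPC values lay just below those of WT.

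The accessory subunits *Mtf2* and *Jarid2* were, like *Suz12*, highest in KO. *Mtf2* (chromosome 5, 108065674 to 108109004), which encodes a Polycomb-like protein that binds CpG-rich DNA, was at 331, 309 and 314 CPM in WT, 498, 524 and 535 CPM in KO and 321, 306 and 309 CPM in KO_PAPC libraries. It was 1.63-fold higher in KO than in WT and 1.67-fold lower in KO_PAPC than in KO. KO_PAPC and WT values of *Mtf2* overlapped (log2 fold change -0.033 ± 0.031). *Jarid2* (chromosome 13, 44729474 to 44921643), which encodes a subunit that helps to recruit PRC2, was at 437, 452 and 447 CPM in WT, 562, 551 and 555 CPM in KO and 485, 471 and 481 CPM in KO_PAPC libraries. Its difference between KO_PAPC and WT was small, with a log2 fold change of 0.098 ± 0.026 that turned to -0.066 with library totals.

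Of the PRC1 genes, *Cbx2* and *Cbx7* encode alternative readers of methylated H3K27, CBX7 being the form typical of undifferentiated ES cells and CBX2 a form that gains weight during differentiation. *Cbx7* (chromosome 15, 79915807 to 79971119) was at 256 to 267 CPM in WT, against 239 to 246 CPM in KO and 228 CPM in each KO_PAPC library, so that the groups were ordered without overlap over a narrow range. *Cbx2* (chromosome 11, 119022962 to 119031270) was at 37.5, 39.1 and 38.7 CPM in WT, 51.1, 48.2 and 49.1 CPM in KO and 53.5, 54.0 and 53.3 CPM in KO_PAPC libraries. *Cbx2* was 1.29-fold higher in KO and 1.39-fold higher in KO_PAPC than in WT. Its log2 fold change in KO_PAPC versus KO was 0.11 ± 0.039, which turned to -0.055 with library totals. Per exon length *Cbx2* was 18.2% ± 0.022 of the summed *Cbx2* and *Cbx7* level in WT, 23.7% ± 0.298 in KO and 26.4% ± 0.127 in KO_PAPC.

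*Scmh1* (chromosome 4, 120405281 to 120530186), the paralogue of *Scml2* on an autosome, was the lowest of the 10 in WT and KO. It was at 22.9, 25.4 and 24.1 CPM in WT, 35.8, 36.1 and 35.5 CPM in KO and 22.1, 19.0 and 20.8 CPM in KO_PAPC libraries. It was 1.48-fold higher in KO than in WT and 1.74-fold lower in KO_PAPC than in KO. *Scml2* made up 73.0% ± 1.69 of the summed *Scml2* and *Scmh1* level per exon length in WT, 66.7% ± 1.46 in KO and 13.8% ± 1.82 in KO_PAPC libraries.

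**Figure D2:**
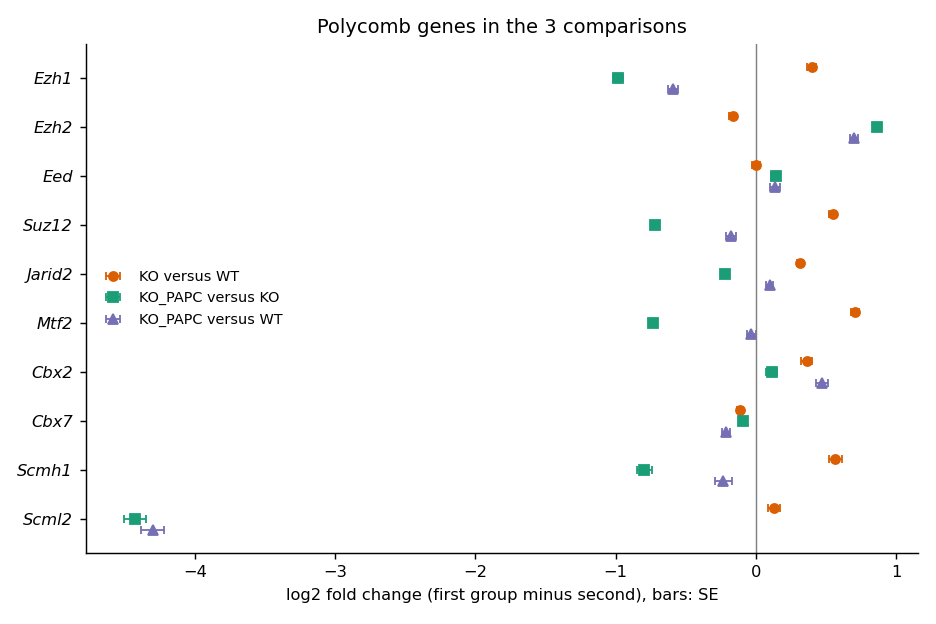
Log2 fold changes of the 10 Polycomb genes (horizontal axis, bars: SE) in KO versus WT (circles), KO_PAPC versus KO (squares) and KO_PAPC versus WT (triangles). *Scml2* is at -4.43 and -4.30 in the comparisons with KO_PAPC, while the other 9 genes lie between -0.99 and 0.86 in all 3.

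All 10 genes passed the filter on low counts in each comparison. In KO versus WT 7 of the 10 were called higher and 2 lower, where 73.8% of all tested genes were called, 36.8% higher and 37.1% lower. Their values did not overlap between the groups for 8 of the 10, against 75.3% of all genes, and their median log2 fold change was 0.34, against -0.0059 over all genes. In KO_PAPC versus KO 3 were called higher and 7 lower, where 81.8% of all genes were called, 39.6% higher and 42.2% lower. None of the 10 overlapped, against 82.2% of all genes without overlap, and the median was -0.47, against -0.017. In KO_PAPC versus WT 4 were called higher and 5 lower, where 70.6% of all genes were called, 34.2% higher and 36.4% lower. Here 9 of the 10 did not overlap, against 72.6%, and the median was -0.11, against -0.017. The 10 genes were chosen with these comparisons in view and the comparisons share libraries, so nothing is read from these counts.

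Per exon length (RPKM, over the union of a gene's exons), *Suz12* had the highest level of the 10 in each group, at 83.2 ± 3.09 RPKM in WT, 122 ± 4.11 RPKM in KO and 73.9 ± 3.44 RPKM in KO_PAPC. In WT it was followed by *Mtf2* (55.8 ± 2.07), *Jarid2* (45.8 ± 0.818), *Eed* (42.9 ± 0.763), *Cbx7* (40.5 ± 0.909) and *Ezh2* (32.7 ± 0.795), each without overlap with the next. A second tier held *Ezh1* (9.10 ± 0.0198), *Cbx2* (9.03 ± 0.19) and *Scml2* (8.47 ± 0.315), of which neighbours overlapped, and *Scmh1* came last at 3.13 ± 0.162 RPKM. The order was the same in KO. In KO_PAPC *Ezh2* ranked 3 at 53.4 ± 0.348 RPKM, overlapping *Mtf2* at 54.8 ± 1.42, and *Scml2* was last at 0.431 ± 0.0815 RPKM. With the longest transcript in place of the union of exons every value was higher, and the order changed in each group. In WT *Eed* (79.5 RPKM) and *Ezh2* (78.4 RPKM) then came above *Mtf2* (78.2 RPKM) and *Jarid2* (53.3 RPKM). In KO *Eed* (79.6 RPKM) and *Ezh2* (70.1 RPKM) came above *Jarid2* (66.5 RPKM). In KO_PAPC *Ezh2* (128 RPKM) rather than *Suz12* (83.6 RPKM) was the highest. Exons shared with other genes covered at most 6.93% of a member (*Mtf2*, with *Tmed5*), and reads in such stretches were not counted.

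To place the 10 genes in their system, 59 other Polycomb genes in 7 lists by role were read from the same fits, and 57 were tested. *Yy2* had no counts in any library, and *L3mbtl4* had at most 3. In KO versus WT 28 of the 57 rose and 18 fell, in KO_PAPC versus KO 25 rose and 23 fell, and in KO_PAPC versus WT 25 rose and 20 fell. These were 80.7%, 84.2% and 78.9% of the 57, against the 73.8%, 81.8% and 70.6% of all genes given above. Their median log2 fold changes were 0.086, 0.024 and 0.051, and the last 2 turned to -0.14 and -0.11 with library totals, with 21 higher and 33 lower and with 20 higher and 31 lower.

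The accessory subunits of PRC2 had the widest range of log2 fold changes of the 7 lists in each comparison. *Phf19*, which encodes a Polycomb-like protein related to MTF2, was at 18.1, 20.7 and 19.1 CPM in WT, 79.7, 79.3 and 74.4 CPM in KO and 6.68, 6.68 and 5.96 CPM in KO_PAPC libraries. It rose 4.03-fold in KO versus WT (log2 fold change 2.01 ± 0.0451, edgeR adjusted p = 1.27e-28), then fell 12.1-fold in KO_PAPC versus KO (-3.60 ± 0.0575, edgeR adjusted p = 2.29e-35). *Phf19* also ended below WT (-1.59 ± 0.0773, edgeR adjusted p = 2.68e-15). Per exon length it was 6.43% ± 0.614 of the summed *Phf19* and *Mtf2* level in WT, 14.5% ± 0.876 in KO and 2.28% ± 0.139 in KO_PAPC.

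*AU022751*, on the X chromosome, whose human counterpart EZHIP binds PRC2 and inhibits it, had 364 to 413 counts per WT library, 851 to 902 per KO library and 36 to 52 per KO_PAPC library. It rose in KO versus WT (1.16 ± 0.0546, edgeR adjusted p = 1.76e-19), then fell from KO to KO_PAPC (-4.10 ± 0.0914, edgeR adjusted p = 6.86e-31). *Epop*, whose product links PRC2 to Elongin, was at 366 ± 22.8 CPM in WT, against 733 ± 14.4 CPM in KO and 237 ± 6.18 CPM in KO_PAPC (log2 fold change 1.0 ± 0.0278 and then -1.63 ± 0.0261, edgeR adjusted p = 6.05e-26 and 2.29e-35). *Aebp2*, which encodes the partner of JARID2 in PRC2.2, took the same course with 0.48 ± 0.0251 and -0.93 ± 0.0308 (edgeR adjusted p = 4.65e-18 and 1.82e-25).

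Of the 5 accessory genes on the list, 4 rose and 1 fell in KO versus WT (median log2 fold change 1.0), none rose and 4 fell in KO_PAPC versus KO (median -1.63), and none rose and 5 fell in KO_PAPC versus WT (median -0.64). In the comparisons with KO_PAPC none was higher at an unadjusted p under 0.05 either, and none by DESeq2. The exception in KO versus WT was *Phf1*, another Polycomb-like gene, which fell by 0.65 ± 0.0593 on the log2 scale (edgeR adjusted p = 8.55e-12). It did not pass the test in KO_PAPC versus KO (0.017 ± 0.0681, edgeR adjusted p = 0.82), a value that turned to -0.15 with library totals. Other genes overlapped 39.3% of the exon bases of *Phf1*. They also held 28.1% of the read-length words of its transcripts, so the level of *Phf1* is uncertain.

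The histone-binding subunits of PRC2 serve other chromatin complexes too. *Rbbp4* was at 738 ± 11.1 CPM in WT, against 539 ± 5.2 CPM in KO and 1197 ± 15.8 CPM in KO_PAPC. It fell in KO versus WT (-0.46 ± 0.0205, edgeR adjusted p = 5.61e-20), then rose from KO to KO_PAPC (1.15 ± 0.0229, edgeR adjusted p = 2.20e-32), the same order of groups as for *Ezh2*. *Rbbp7* did not pass the test in KO versus WT (-0.046 ± 0.0222, edgeR adjusted p = 0.0625) or KO_PAPC versus KO (-0.019 ± 0.0249, edgeR adjusted p = 0.491). Of the 51-base words of *Rbbp4* transcripts 17.0% also occurred in other genes, and 18.0% of its exon bases overlapped other genes, so its level is uncertain.

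**Figure D3:**
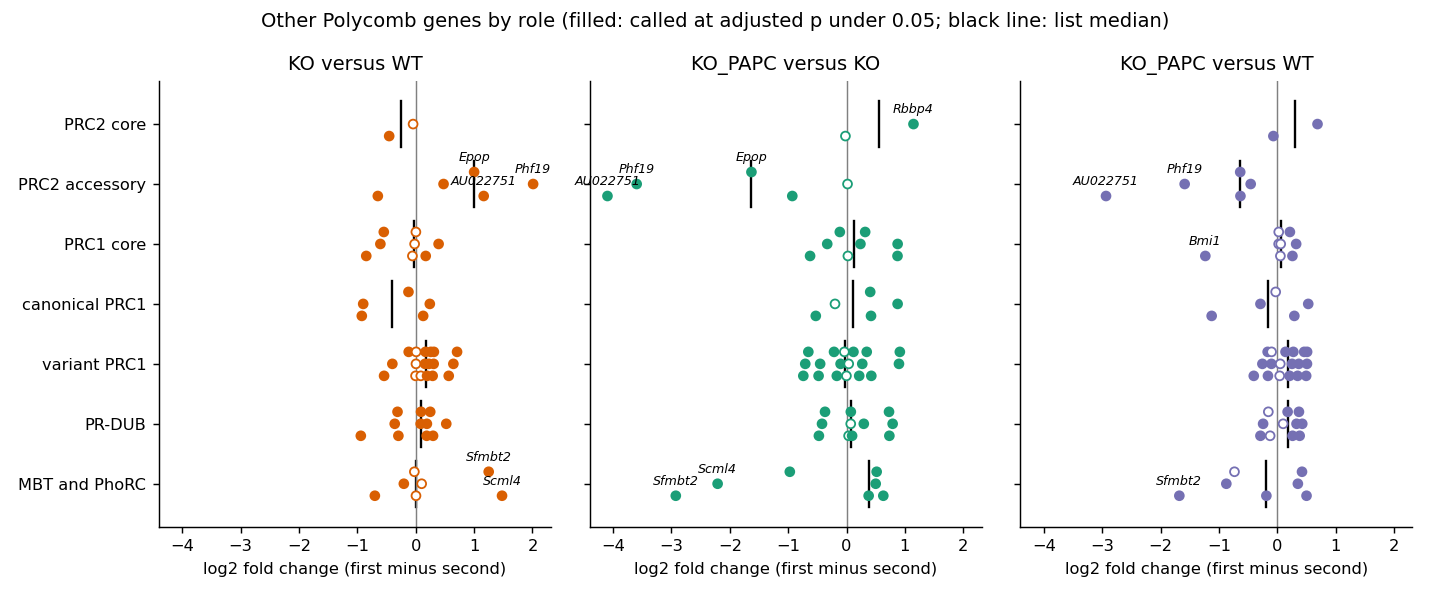
Log2 fold changes (horizontal axes) of tested Polycomb genes outside the 10, by role list, in the 3 comparisons; filled points were called at an adjusted p under 0.05, open points were not, and black lines are list medians. The PRC2 accessory list spreads furthest, with *Phf19* at 2.01 and then -3.60 and *AU022751* at 1.16 and then -4.10, while most other points lie within 1 of zero.

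The PRC1 core showed smaller differences. *Ring1* and *Rnf2* encode the 2 E3 ligases. *Ring1* was at 23.2 ± 0.112 CPM in WT, against 12.9 ± 1.65 CPM in KO and 23.7 ± 0.772 CPM in KO_PAPC. It fell in KO versus WT (-0.85 ± 0.0643, edgeR adjusted p = 7.89e-14), then rose from KO to KO_PAPC (0.88 ± 0.0672, edgeR adjusted p = 1.83e-14), while in KO_PAPC versus WT it did not pass (0.025 ± 0.0521, turning to -0.14 with library totals). *Rnf2*, at 187 CPM in WT, did not pass in KO versus WT (-0.020 ± 0.0288, edgeR adjusted p = 0.544), then rose from KO to KO_PAPC (0.24 ± 0.0303, edgeR adjusted p = 6.58e-09). *Bmi1*, which encodes the PCGF4 subunit, fell in both steps, from 30.6 ± 1.83 CPM in WT to 20.1 ± 0.321 CPM in KO and 13.1 ± 0.677 CPM in KO_PAPC (-0.61 ± 0.0514 and -0.62 ± 0.0617, edgeR adjusted p = 1.36e-12 and 1.65e-11). Its share of the summed *Bmi1* and *Pcgf2* level per exon length was 15.99% ± 1.78 in WT, 8.67% ± 0.308 in KO and 7.196% ± 0.58 in KO_PAPC. Of the 51-base words of *Bmi1* 16.3% occurred in other genes. Over the list of 8, 2 rose and 3 fell in KO versus WT, and 4 rose and 3 fell in KO_PAPC versus KO. The shares of all genes called were 73.8% and 81.8%.

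Among the canonical PRC1 genes, the further CBX readers *Cbx6* and *Cbx8* fell in KO versus WT. *Cbx6* fell from 141 to 75.5 CPM (-0.90 ± 0.0303, edgeR adjusted p = 1.46e-23) and rose again in KO_PAPC versus KO (0.88 ± 0.0316, edgeR adjusted p = 2.72e-24). *Cbx8* was near the lower limit, at 2.52 CPM in WT, against 1.33 CPM in KO and 1.16 CPM in KO_PAPC. Of the 6 genes on this list, 2 rose and 4 fell in KO versus WT, and 3 rose and 2 fell in KO_PAPC versus KO. The shares of all genes called were 73.8% and 81.8%.

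The 18 variant PRC1 genes split 11 higher and 3 lower in KO versus WT, and 7 higher and 8 lower in KO_PAPC versus KO. The shares of all genes called were 73.8% and 81.8%. *Rybp*, which encodes a subunit that takes the place of CBX proteins, was at 46.0 CPM in WT, against 75.3 CPM in KO and 47.9 CPM in KO_PAPC (log2 fold change 0.71 ± 0.0357 and then -0.65 ± 0.0374, edgeR adjusted p = 1.39e-18 and 3.45e-18). In KO_PAPC versus WT *Rybp* did not pass (0.051 ± 0.0402, turning to -0.11 with library totals). *Kdm2b*, whose product carries variant PRC1 to unmethylated CpG islands, took the opposite course, from 82.0 CPM in WT to 56.4 CPM in KO and 106 CPM in KO_PAPC (-0.54 ± 0.0347 and 0.91 ± 0.0361, edgeR adjusted p = 8.57e-16 and 4.39e-23). *Tfdp1*, the E2F partner, did likewise (-0.40 ± 0.0276 and 0.90 ± 0.0292, edgeR adjusted p = 6.09e-15 and 9.68e-26). Of the read-length words of *Tfdp1* transcripts 16.6% also occurred in other genes.

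The PR-DUB complex removes the ubiquitin that PRC1 adds. Its 11 genes were all called in KO versus WT, 7 higher and 4 lower, and in KO_PAPC versus KO 6 were higher and 3 lower, against 73.8% and 81.8% of all genes called. The largest differences in KO_PAPC versus KO were those of *Asxl3* (0.79 ± 0.127, after -0.94 ± 0.114 between KO and WT, edgeR adjusted p = 7.47e-07 and 5.70e-09), a cofactor of the deubiquitinase BAP1 that is low in these EBs (2.83 to 5.43 CPM on average), and of *Foxk2* (0.73 ± 0.0309, after -0.36 ± 0.0299, edgeR adjusted p = 3.19e-22 and 7.82e-13). In KO versus WT the next after *Asxl3* was *Kdm1b*, a histone demethylase gene (0.52 ± 0.0509, edgeR adjusted p = 4.06e-11), and in KO_PAPC versus WT *Asxl2* (0.43 ± 0.0371, edgeR adjusted p = 1.85e-10) and *Asxl1* (0.38 ± 0.0295, edgeR adjusted p = 1.94e-11) differed most. *Bap1* itself differed little, at 151, 160 and 172 CPM. Its log2 fold change in KO_PAPC versus KO, 0.096 ± 0.0286, was called higher but turned to -0.071 with library totals, so the 6 higher calls depend on the scaling.

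The last list held genes with MBT repeats, the chromatin-reading folds that SCML2 and SCMH1 also carry, and the DNA-binding protein gene *Yy1*. *Sfmbt2* was at 5.36 ± 0.262 CPM in WT, against 12.8 ± 0.499 CPM in KO and 1.68 ± 0.377 CPM in KO_PAPC (1.25 ± 0.0779 and -2.93 ± 0.115, edgeR adjusted p = 4.59e-16 and 3.32e-23). *Scml4*, a further relative of *Scml2*, was at 0.413 CPM in WT, against 1.16 CPM in KO and 0.248 CPM in KO_PAPC and passed the test in the first 2 comparisons (1.48 ± 0.255 and -2.21 ± 0.305, edgeR adjusted p = 4.11e-06 and 3.78e-08). *Sfmbt1* and *Mbtd1* rose in KO_PAPC versus KO, so that of the 7 tested genes 4 rose and 3 fell there, against 81.8% of all genes called.

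The Hox genes are the textbook targets of Polycomb silencing, and their transcripts were read as a whole family. Of 39 Hox genes 23 passed the filter, and the other 16 had at most 17 counts in any library. In KO versus WT 21 of the 23 fell and none rose, with a median log2 fold change of -1.13, where 73.8% of all tested genes were called, 37.1% lower. None was higher at an unadjusted p under 0.05, and DESeq2 called 19 lower and none higher. In KO_PAPC versus KO 10 rose and 7 fell (median 0.44), and in KO_PAPC versus WT 5 rose and 12 fell (median -0.59), against 81.8% and 70.6% of all genes called. The 5 higher calls in KO_PAPC versus WT came to 2 with library totals, 3 with DESeq2 and 3 without WT replicate 2, while 12, 11 and 12 were called lower.

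The direction in KO_PAPC versus KO differed between the clusters and was not set by the place along them. *Hoxa5* was at 15.4, 14.3 and 16.9 CPM in WT, 3.77, 3.81 and 4.16 CPM in KO and 18.2, 17.1 and 19.1 CPM in KO_PAPC libraries (-1.99 ± 0.0853 and 2.21 ± 0.0828, edgeR adjusted p = 1.40e-20 and 9.02e-24). *Hoxa2*, *Hoxa3*, *Hoxa4*, *Hoxb1*, *Hoxb2* and *Hoxb3*, at the early-expressed ends of their clusters, rose with it in KO_PAPC versus KO. *Hoxa2* had the largest rise of these (2.60 ± 0.156, edgeR adjusted p = 1.54e-17), and *Hoxb1* went from 1.89 ± 0.0872 CPM in KO to 9.22 ± 0.114 CPM in KO_PAPC, above the 5.25 ± 0.303 CPM of WT. The 4 tested *Hoxd* genes and both tested *Hoxc* genes fell instead. Among these, *Hoxd1* (-0.94 ± 0.291) and *Hoxc4* (-0.76 ± 0.231) also stand at the early-expressed ends of their clusters. *Hoxd8* had 77, 55 and 72 counts in WT, 26, 25 and 33 in KO and 2, 5 and 0 in KO_PAPC libraries, and *Hoxd9* had 33, 34 and 24 counts in WT, 12, 16 and 15 in KO and 1 in each KO_PAPC library, so no fold is given for them. *Hoxa9* and *Hoxb13* rose and *Hoxb9* fell as well, though KO and KO_PAPC values overlapped for *Hoxb13* (edgeR adjusted p = 0.0349) and *Hoxb9*. The Hox genes other than *Hoxa2*, *Hoxb1*, *Hoxb2*, *Hoxd8* and *Hoxd9* are named here after their values were seen. Most Hox levels were below 5 CPM, and 15.0% of *Hoxa2*, 27.3% of *Hoxb2* and 52.9% of *Hoxb3* exon bases overlapped other genes. The libraries were unstranded, and reads in such stretches were not counted, so the levels of these genes leave them out.

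**Figure D4:**
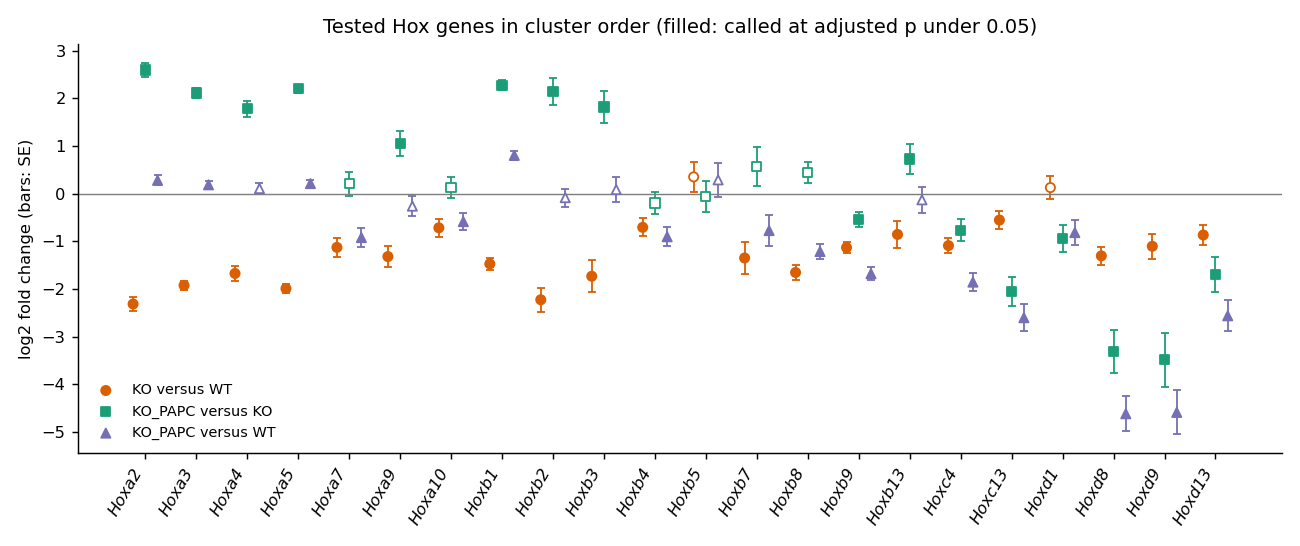
Log2 fold changes (vertical axis, bars: SE) of tested Hox genes in cluster order in KO versus WT (circles), KO_PAPC versus KO (squares) and KO_PAPC versus WT (triangles); filled symbols were called at an adjusted p under 0.05. Circles lie below zero for all but *Hoxb5* and *Hoxd1*, while squares are above zero for *Hoxa2* to *Hoxa5* and *Hoxb1* to *Hoxb3* and below zero for the *Hoxc* and *Hoxd* genes; the values of *Hoxd8* and *Hoxd9* in KO_PAPC rest on 0 to 5 counts per library.

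*Cdkn2a* and *Cdkn2b*, the cell cycle inhibitor genes that Polycomb and CBX7 in particular are known to repress, were read as a further pair of targets. *Cdkn2a* was at 16.2, 18.9 and 16.7 CPM in WT, 30.8, 29.8 and 30.5 CPM in KO and 1.75, 1.74 and 1.99 CPM in KO_PAPC libraries. It rose in KO versus WT (0.81 ± 0.0538, edgeR adjusted p = 2.53e-15), then fell from KO to KO_PAPC (-4.06 ± 0.0866, edgeR adjusted p = 1.78e-31). *Cdkn2b* fell in KO_PAPC versus KO (-1.84 ± 0.179, edgeR adjusted p = 1.05e-11), from 3.32 ± 0.323 to 0.925 ± 0.186 CPM. Its rise in KO versus WT (0.29 ± 0.133, edgeR adjusted p = 0.047) did not pass with DESeq2 (adjusted p = 0.231) or without any 1 of 4 libraries (WT replicates 1 and 2, KO replicates 1 and 2).

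The enzymes that oppose Polycomb were read from a list of 8 H3K27 demethylase and Trithorax-group methyltransferase genes. All 8 were called in KO versus WT, 5 higher and 3 lower, and in KO_PAPC versus KO 2 rose and 6 fell, against 73.8% and 81.8% of all genes called. The demethylase genes *Kdm6a* and *Kdm6b* moved apart. *Kdm6a* was at 77.8 ± 5.34 CPM in WT, against 120 ± 4.09 CPM in KO and 87.6 ± 3.83 CPM in KO_PAPC (0.62 ± 0.0365 and -0.45 ± 0.0346, edgeR adjusted p = 1.09e-16 and 1.77e-14), whereas *Kdm6b* fell and then rose (-0.52 ± 0.0351 and 0.38 ± 0.0345, edgeR adjusted p = 3.87e-15 and 1.53e-12). *Kdm6a* was called higher in KO_PAPC than in WT (0.16 ± 0.0444, edgeR adjusted p = 0.00212), a value that turned to -0.0012 with library totals. *Kmt2c*, which encodes an enhancer H3K4 methyltransferase, fell most in KO_PAPC versus KO (-0.75 ± 0.0314, edgeR adjusted p = 3.08e-22). With a tested minimum fold change of 2, edgeR called none of the 8 in any comparison, also at an unadjusted p under 0.05.

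Genes beside *Scml2* on the X chromosome were read to see whether its low level in KO_PAPC was shared along the chromosome. The nearest tested gene after it, *Gm15262* (29.2 kb away), had 252, 232 and 236 counts in WT, 148, 140 and 153 in KO and 4, 1 and 2 in KO_PAPC libraries, and was called lower in KO_PAPC than in both (edgeR adjusted p = 5.63e-21 against KO and 3.65e-18 against WT). The next gene on that side, *Nhs* (575 kb away), went the other way and rose in KO_PAPC versus KO (1.63 ± 0.078, edgeR adjusted p = 1.69e-20). *Phka2* fell (-0.70 ± 0.0456, edgeR adjusted p = 1.71e-16), as did *Reps2* (-2.75 ± 0.119, edgeR adjusted p = 8.38e-22). *Adgrg2* fell as well, with 28 to 40 counts per KO library and 3 or 4 per KO_PAPC library.

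Within 3 Mb of the start of *Scml2*, 23 other protein-coding genes were tested. In KO_PAPC versus KO 2 rose and 20 fell, where 39.6% of all genes were called higher and 42.2% lower. The median log2 fold change was -0.94, against -0.017 over all genes. Of the 23, 10 were at least 2-fold lower and 1 was at least 2-fold higher, where 27.8% of all genes differed at least 2-fold in either direction. In KO versus WT 18 rose and 2 fell (median 0.43), where 36.8% of all genes were called higher and 37.1% lower (median -0.0059). In KO_PAPC versus WT 3 rose and 13 fell (median -0.15), where 34.2% of all genes were called higher and 36.4% lower (median -0.017). Of these 23, *Gm15262* alone had a lower fitted value than *Scml2* in KO_PAPC versus KO, and *Rbbp7*, 1.64 Mb away, was the one that did not pass.

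**Figure D5:**
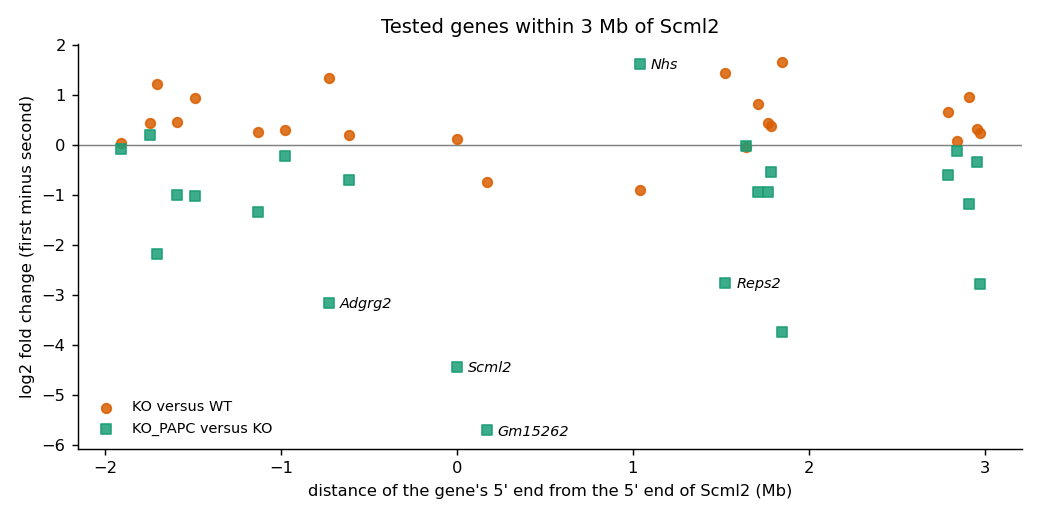
Log2 fold changes (vertical axis) of tested protein-coding genes within 3 Mb of *Scml2* against the distance of their 5′ end from that of *Scml2* in Mb (horizontal axis), in KO versus WT (circles) and KO_PAPC versus KO (squares). Most squares are below zero, with *Gm15262* and *Scml2* lowest, and *Nhs* at 1.63 is the highest.

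The genes whose profile over the 9 libraries lay nearest to that of *Scml2*, by the root mean square difference of centred log2(CPM + 0.5) among 14186 genes averaging 1 CPM or more, were *AI662270* (difference 0.18), *Mmrn2* (0.284), *Tuba3b* (0.286), *Fam129a* (0.332) and *Ankrd33b* (0.335). *Mmrn2*, which encodes an endothelial matrix protein, was at 38.7 CPM in WT, against 58.3 CPM in KO and 2.54 CPM in KO_PAPC. *Fam129a* was at 22.1, 27.0 and 1.72 CPM and *Ankrd33b* at 18.6, 27.96 and 1.44 CPM in the same order. *AI662270* had 198 to 304 counts in WT and KO libraries and 1 in each KO_PAPC library. It averaged 7.32, 10.1 and 0.039 CPM and *Tuba3b* 8.90, 7.83 and 0.209 CPM, steeper falls than that of *Scml2*. The 0.5 CPM added before taking logs narrows such falls near 0, so the rank of these 2 genes depends on it. All 5 nearest genes lie on autosomes. Other genes held 28.99% of the 51-base words of *Tuba3b*, a tubulin gene, and 13.9% of those of *AI662270*. By Pearson's r of log2 values over the 9 libraries, which fall into 3 groups, the highest was that of *Stra8* (0.999), a gene of meiotic entry in germ cells, at 70.1, 76.8 and 6.69 CPM. Among the Polycomb genes *AU022751* was nearest (difference 0.62), followed by *Phf19* (1.09) and *Sfmbt2* (1.10), and the nearest of the other 9 genes described here was *Ezh1* (1.59).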

How the data were processed

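RNA of 9 libraries of embryoid bodies was sequenced as 51-cycle single-end reads of unstranded libraries. Per the labels, the submitters' processing notes name bcl2fastq 2.20.0.422, STAR 2.7.2b, featureCounts 1.6.5 and the build GRCm38. The study's methods give Ensembl release 99 and describe an earlier pipeline for WT, although all 9 columns lie in 1 table. The deposited values are whole-number counts per gene, made by the authors without normalization, and reads with more than 1 mapping place or more than 1 overlapping gene were left out. The number of columns left unused was 0.

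Symbols, positions and exon lengths were joined by Ensembl ID from GENCODE M21, and 241 IDs had no match. Each comparison was fitted on its own 6 libraries with edgeR 4.0.16 (R 4.3.3; TMM, filterByExpr, quasi-likelihood F test, Benjamini-Hochberg adjustment), which was tested on simulated data. SE was derived from F. The study's methods call the 3 libraries of each group biological replicates, and those of KO and KO_PAPC were separate pools of bodies, so p-values measure the spread between such pools. Replicates differed by more than sampling noise, but this spread was small. The common coefficient of variation between replicates in edgeR was 2.09% for KO versus WT, 2.32% for KO_PAPC versus KO and 2.65% for KO_PAPC versus WT. The 10 genes, the gene lists and the rule for naming genes (the listed PRC2, PRC1 and demethylase genes, up to 2 largest changes per list and comparison with a mean of at least 1 CPM, 5 nearest profiles, 3 neighbours on each side) were chosen with earlier results of these data known, and further genes were named after their values were seen. Alternatives were DESeq2 1.42.0, RLE and library-total scaling, other filters, a joint fit, a replicate block, a minimum fold change of 2, each library left out, and the longest transcript for RPKM. Some genes read in these fits are not reported here, though they remain in the counts over lists.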

Additional observations from a re-analysis of the deposited data

How the results depend on the processing

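Of 390 alternative values of the 10 genes 369 moved by less than the spread between replicates, 17 moved further and 4 reversed, all 4 with library totals: *Eed* (-0.026) and *Cbx2* (-0.055) in KO_PAPC versus KO, and *Eed* (-0.027) and *Jarid2* (-0.066) in KO_PAPC versus WT. Of 1947 alternative values of the other genes named by the rule 1906 kept their call, 28 lost it, 9 gained one and 4 reversed. These 4 were again with library totals: *Phf1* in KO_PAPC versus KO (-0.15), and *Kdm6a* (-0.0012), *Ring1* (-0.14) and *Rybp* (-0.11) in KO_PAPC versus WT. *Bap1*, which the rule did not name and these counts leave out, also turned with library totals (-0.071 in KO_PAPC versus KO). All 30 RPKM values moved with the longest transcript.

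With a minimum fold change of 2, calls among the other Polycomb genes were 3, 6 and 5 (in the order KO with WT, treated with untreated KO, treated KO with WT, as in the lists below), among Hox genes 7, 11 and 6, and among the opposing enzymes 0, 0 and 0. The median of the other Polycomb genes without the filter was 0.071 for KO versus WT and 0.047 for KO_PAPC versus KO. With library totals it was -0.14 in KO_PAPC versus KO and -0.11 in KO_PAPC versus WT. With 1 library left out it ranged from 0.061 to 0.096 in KO versus WT, from 0.0082 to 0.050 in KO_PAPC versus KO and from 0.034 to 0.068 in KO_PAPC versus WT. Calls then ranged from 46 to 47, 48 to 49 and 44 to 46 among the other Polycomb genes, from 21 to 22, 15 to 18 and 15 to 17 among Hox genes, and from 7 to 8, 8 to 8 and 6 to 7 among the opposing enzymes.

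With the replicate block, calls were 46, 48 and 47 among the other Polycomb genes, 21, 17 and 17 among Hox genes and 8, 8 and 8 among the opposing enzymes. Same-numbered libraries shared only a number: their deviations correlated between -0.318 and 0.442, and 5 of 18 correlated best with their own number. Depth limits *Hoxd8*, *Hoxd9*, *Gm15262* and *Adgrg2*, which had at most 5 counts in each KO_PAPC library.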
